A study of Homo sapiens with 5 samples.

Results

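Interferon-stimulated genes were followed in MDA-MB-231 cells, an established human cell line derived from triple-negative breast cancer, mesenchymal in its markers. A list of 58 symbols was searched for, and all 58 had a row. Of these, 55 had a level of 1 or more CPM (counts scaled to the library's total and by TMM factors) in 1 or more of the 5 libraries and are described here, out of 13940 genes that passed the same filter and 26475 rows in all. The 3 that did not pass were RTP4, IFI27 and CMPK2, whose highest levels were 0.629, 0.503 and 0.252 CPM. The lowest of those that passed were IFI44L and RSAD2, with highest levels of 1.76 and 1.89 CPM. Both of these passed through the reoxygenated library alone, so that their being high there is partly a product of the filter.

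The study asked how a short exposure to low oxygen differs from a long one, and what remains once oxygen is restored. The labels name no agent other than oxygen. Cells were kept for 1 day at 20% O2, for 1 day at 1% O2 (acute hypoxia), for 10 days at 20% O2, for 10 days at 1% O2 (chronic hypoxia), or for 10 days at 1% O2 and then 10 days at 20% O2 (reoxygenated). Each condition had 1 library of bulk mRNA. Differences therefore compare libraries and not conditions, they have no replicate check, and no p-value belongs to a pair of libraries. The reoxygenated cells had also been in culture longer than any other, so that time and the return of oxygen cannot be told apart.

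Interferons are secreted proteins that bind receptors on the cell surface and act through kinases. In the response to type I and type III interferons the kinases JAK1 and TYK2 activate factors that include STAT2 and IRF9. These factors bind the interferon-stimulated response element in the promoters of many genes. The products of these genes sense foreign RNA and DNA, block viral replication, and feed back on the pathway. Many tumour cells express a basal set of them without an infection, and double-stranded RNA or DNA of the cell itself can raise it.

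Total estimated counts ran from 7719807 in the reoxygenated library, the shallowest, to 12544941 in the 20% O2 day 10 library. One read was worth 0.0816 to 0.126 CPM, and a gene without reads could hold up to 3 counts, or 0.245 to 0.377 CPM. The oxygen labels were checked with CA9 and NDRG1, a pair of genes known to be induced by hypoxia. CA9 stood at 5.11 and 8.49 CPM in the 20% O2 libraries, at 51.9 and 68.7 CPM in the 1% O2 libraries and at 3.65 CPM after reoxygenation. NDRG1 stood at 64.4 and 82.7 CPM at 20% O2, at 556 and 3879 CPM at 1% O2 and at 63.4 CPM after reoxygenation. The line's own markers VIM, CD44, AXL, KRT8, KRT18 and ZEB1 were all detected, with a summed level of 2847 CPM at 1% O2 day 10, the lowest, to 5044 CPM at 20% O2 day 1. ESR1 and PGR stayed under 1 CPM in all 5 libraries.

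The TMM method behind the scaling sets libraries level over most genes. Levels are listed in the order 20% O2 day 1, 1% O2 day 1, 20% O2 day 10, 1% O2 day 10 and reoxygenated. A difference is a difference of log2 CPM (prior count of 2), and its bracketed range is an exact 95% interval of the count ratio. The intervals cover counting error only, and since reads carried no molecular identifiers they may be too narrow. A gene is called higher or lower where it differed by log2 1, or 2-fold, or more. In bulk RNA, fewer cells of a type and less RNA per cell cannot be told apart.

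Promoter sequence was examined because most of these genes are known to be read from the interferon-stimulated response element. The motif was searched for as GAAANNGAAA on both strands, so that its reverse complement is TTTCNNTTTC, in RefSeq windows of 250 bases before to 50 after each annotated start (GRCh38.p14). Overlapping matches were counted separately. A window was at hand for 46 of the 55 genes, and 29 of them (63.0%) held the motif. Of all genes that passed the filter, 449 of 10990 with a window (4.09%) held it, and of all 35116 windows of this length 3.57% did. The list was drawn up from known interferon targets, so this share describes the list and is no result of the hypoxia experiment. The 9 genes without a window were IRF7, IFIT2, IFITM2, OAS2, OASL, MX2, USP18, GBP2 and TRIM22.

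The sequences of 2 neighbouring genes of the IFIT family are shown first, because their promoters both hold the motif while their RNA levels took different courses after reoxygenation. Each runs from 250 bases before the start to the first 6 transcribed bases, 5′ to 3′ on the plus strand, with the motif in capitals. IFIT1 lies at chr10:89392373-89392628 and IFIT5 at chr10:89414318-89414573. The 2 motifs of IFIT1 begin 116 and 103 bases before the start, and the 3 of IFIT5 begin 45, 19 and 4 bases before it.
IFIT1: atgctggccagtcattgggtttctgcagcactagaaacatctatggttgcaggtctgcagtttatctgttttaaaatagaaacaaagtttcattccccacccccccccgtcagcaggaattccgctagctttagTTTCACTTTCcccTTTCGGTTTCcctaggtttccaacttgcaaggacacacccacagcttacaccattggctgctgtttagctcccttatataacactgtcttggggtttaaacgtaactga
IFIT5: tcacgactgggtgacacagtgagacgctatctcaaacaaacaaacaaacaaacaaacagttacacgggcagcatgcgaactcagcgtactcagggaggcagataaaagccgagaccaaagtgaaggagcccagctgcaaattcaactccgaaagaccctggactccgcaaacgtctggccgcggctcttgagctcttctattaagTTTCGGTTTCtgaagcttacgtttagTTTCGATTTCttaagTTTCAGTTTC

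Shorter stretches around the motif follow for 6 other genes that stood highest after reoxygenation. They are read on the gene's own strand, with up to 30 bases on either side of the motif. Their positions are chr10:89327811-89327914 (IFIT3, plus strand), chr4:168318766-168318870 (DDX60, minus), chr1:1013354-1013429 (ISG15, plus), chr1:78649741-78649794 (IFI44, plus), chr2:162318679-162318873 (IFIH1, minus) and chr2:6877602-6877671 (RSAD2, plus). In ISG15, and in the first block of IFIH1, 2 matches overlap and form 1 run of capitals.
IFIT3: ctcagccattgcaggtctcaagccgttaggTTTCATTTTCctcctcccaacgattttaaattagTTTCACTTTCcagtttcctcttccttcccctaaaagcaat
DDX60: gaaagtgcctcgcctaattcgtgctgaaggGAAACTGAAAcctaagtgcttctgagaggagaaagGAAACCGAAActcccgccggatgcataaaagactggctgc
ISG15: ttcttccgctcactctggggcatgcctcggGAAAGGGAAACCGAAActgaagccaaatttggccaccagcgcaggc
IFI44: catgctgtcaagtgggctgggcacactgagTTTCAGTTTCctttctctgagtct
IFIH1: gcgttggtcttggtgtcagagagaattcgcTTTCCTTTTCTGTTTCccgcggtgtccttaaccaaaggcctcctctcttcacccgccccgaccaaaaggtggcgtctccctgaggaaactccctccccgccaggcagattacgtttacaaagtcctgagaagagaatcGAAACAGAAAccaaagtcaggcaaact
RSAD2: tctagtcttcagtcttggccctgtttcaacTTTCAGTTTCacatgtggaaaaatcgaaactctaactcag

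A last set comes from 3 genes that were apart in the library of 10 days at 1% O2, ISG20 and IFITM1 being high there and GBP1 low. They lie at chr15:88638917-88638986 (ISG20, plus strand), chr11:313970-314045 (IFITM1, plus) and chr1:89065296-89065365 (GBP1, minus).
ISG20: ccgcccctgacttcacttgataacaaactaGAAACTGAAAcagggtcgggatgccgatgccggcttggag
IFITM1: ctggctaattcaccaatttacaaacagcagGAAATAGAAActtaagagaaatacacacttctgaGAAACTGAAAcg
GBP1: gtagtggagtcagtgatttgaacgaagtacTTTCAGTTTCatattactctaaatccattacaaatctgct

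The library that stood apart for these genes was the reoxygenated one. Of the 55 genes, 34 had their highest level of the 5 libraries there and 0 had their lowest, whereas 16.6% of all genes had their highest and 13.6% their lowest level in it. Against 20% O2 day 10, 16 of the 55 genes were higher and 0 lower. Over all 13940 genes 3.4% were higher and 1.41% lower in that comparison. The median difference of the 55 genes was 0.55 on the log2 scale and that of all genes 0.00, and 46 of the 55 differences lay above 0. The 16 were DDX60, OASL, IFIT1, MX2, IFIT2, IFI44, SAMD9L, IFIH1, IFIT3, OAS2, EPSTI1, ISG15, TRIM22, SAMD9, RSAD2 and BATF2, all with intervals above 0 except BATF2 at 1.04 [-0.04, 2.53]. That library was also the shallowest, and the part of its depth in these differences was not tested.

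Part of the list lay at least 2-fold above each of the other 4 libraries after reoxygenation. This held for 11 genes, OASL, SAMD9L, IFIT2, DDX60, OAS2, IFI44, IFIT1, IFIT3, RSAD2, IFIH1 and ISG15. Only 49 genes of all 13940 (0.352%) met the same rule, so the 11 made up 22.4% of those genes and 20% of the 55. Where only genes reaching 5 CPM in a library were considered, 10 of the 50 interferon-stimulated genes left and 23 of all 11641 genes (0.198%) met it, RSAD2 being the one left out. ISG15 lay at the edge of the rule, at 1.00 above its next highest library, and fell outside it when scaled with DESeq2's size factors.

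**Figure D1:**
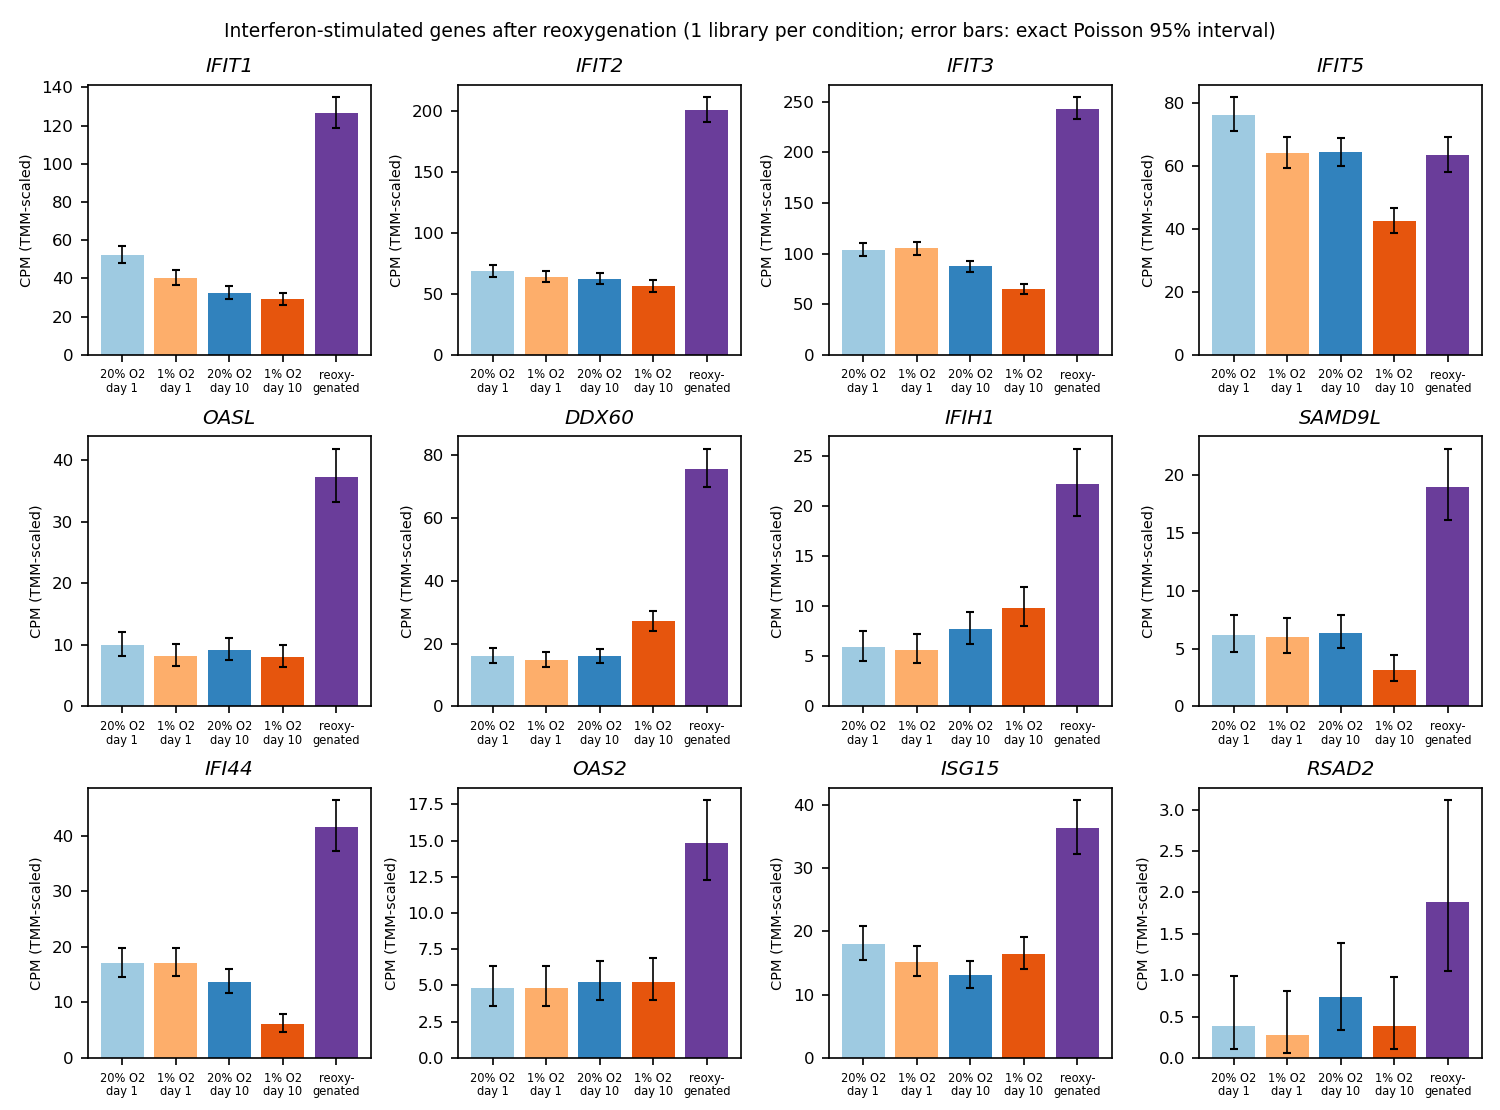
Levels of 12 interferon-stimulated genes in each of the 5 libraries, in TMM-scaled CPM on a linear axis from 0, with 1 library per bar and exact Poisson 95% intervals as error bars. The 11 genes at least 2-fold above each other library after reoxygenation are shown with IFIT5, whose reoxygenated level (63.5 CPM) lay below that of 20% O2 day 1 (76.3 CPM).

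The IFIT genes encode proteins with tetratricopeptide repeats that bind viral RNA and hinder its translation, and 4 of them sit side by side on chromosome 10. IFIT1 (chr10:89392623-89406487) stood at 52.3, 40.4, 32.6, 29.1 and 127 CPM. IFIT2 (chr10:89302046-89309271) stood at 68.5, 64.1, 62.5, 56.4 and 201 CPM. IFIT3 (chr10:89327997-89340968) stood at 104, 105, 87.3, 64.6 and 243 CPM. In all 3 the reoxygenated library was the highest and the library of 10 days at 1% O2 the lowest. The reoxygenated level of IFIT1 was 3.86-fold that at 20% O2 day 10, a difference of 1.95 [1.79, 2.13]. That of IFIT2 was 3.21-fold, or 1.68 [1.56, 1.81], and that of IFIT3 2.78-fold, or 1.47 [1.37, 1.59]. The neighbouring IFIT5 (chr10:89414568-89420997) was not among the higher genes. It stood at 76.3, 64.1, 64.4, 42.5 and 63.5 CPM, so that the reoxygenated library and that of 20% O2 day 10 were level, with a difference of -0.02 [-0.18, 0.14].

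OAS proteins make the second messenger that activates the RNA-degrading enzyme RNase L, except for OASL, which lacks this activity and binds RIG-I. OASL (chr12:121017761-121039246) had the widest gap of the list between the reoxygenated library and its next highest one, 1.88. It stood at 10.0, 8.25, 9.22, 8.05 and 37.4 CPM, which put reoxygenated cells 3.99-fold above 20% O2 day 10, or 2.00 [1.70, 2.34]. OAS2 (chr12:112978519-113011723) stood at 4.82, 4.82, 5.22, 5.27 and 14.8 CPM. The first 4 libraries of OAS2 thus lay within their counting error of one another, and the reoxygenated one stood 1.47 [1.06, 1.97] above 20% O2 day 10. OAS3, the gene next to it on chromosome 12, stood at 41.9, 45.0, 46.8, 29.1 and 53.8 CPM, with a smaller difference of 0.20 [0.02, 0.38].

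OAS1, at the other end of the same cluster, was highest elsewhere, in the library of 10 days at 1% O2. Its levels were 3.28, 2.97, 2.86, 8.34 and 5.66 CPM. The MX genes encode dynamin-like GTPases that trap viral nucleocapsids. MX1 stood at 5.30, 5.10, 5.55, 7.96 and 10.7 CPM, and its reoxygenated level was 0.92 [0.47, 1.43] above 20% O2 day 10, short of the 2-fold rule. MX2 stood at 2.31, 2.97, 1.71, 5.85 and 6.04 CPM. Its reoxygenated level was 1.71 [1.05, 2.63] above 20% O2 day 10. MX2 was about as high at 10 days of 1% O2 as after reoxygenation, the difference between those libraries being 0.04 [-0.53, 0.62].

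Among the sensors, 2 of 10 were higher after reoxygenation than at 20% O2 day 10, beside 3.4% of all genes. DDX60 (chr4:168216294-168325979), a helicase that assists RIG-I, had the largest difference from 20% O2 day 10 of all 55 genes. It stood at 16.1, 14.7, 15.9, 27.1 and 75.6 CPM, so that the reoxygenated level was 4.71-fold that at 20% O2 day 10, or 2.23 [2.01, 2.49]. DDX60 at 10 days of 1% O2 was also above its control, by 0.76 [0.50, 1.04], short of the rule. The adjoining paralogue DDX60L stood at 40.1, 39.0, 45.7, 37.8 and 57.6 CPM, with a difference of 0.33 [0.15, 0.52]. IFIH1 (chr2:162267074-162318684) encodes MDA5, a sensor of long double-stranded RNA. It stood at 5.88, 5.65, 7.67, 9.78 and 22.1 CPM, which put the reoxygenated cells 1.51 [1.16, 1.91] above 20% O2 day 10.

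DDX58, the gene of RIG-I, stood at 77.1, 86.8, 70.7, 74.0 and 123 CPM. Its reoxygenated level was the highest but 0.80 [0.67, 0.94] above 20% O2 day 10, and so did not reach 2-fold. The other sensors and RNA-binding regulators moved little. IFI16, a nuclear DNA sensor, and the antiviral zinc finger protein ZC3HAV1 differed from 20% O2 day 10 by 0.47 [0.33, 0.62] and 0.25 [0.11, 0.39]. ADAR, which edits adenosine in double-stranded RNA, was steadily abundant, at 289, 310, 297, 259 and 339 CPM. EIF2AK2, the kinase PKR that shuts down translation, stood at 104, 108, 117, 110 and 120 CPM. TRIM25, a ubiquitin ligase of RIG-I, was highest at 1% O2 day 1 with 262 CPM and stood at 191 CPM after reoxygenation. TRIM21, a receptor for antibody in the cytosol, ranged from 8.98 to 13.6 CPM without an order beyond its counting error between reoxygenated cells and 20% O2 day 10 (0.20 [-0.23, 0.63]).

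ISG15 (chr1:1013497-1014540) encodes a ubiquitin-like modifier that is attached to proteins by UBE2L6 and HERC5 and removed by USP18. ISG15 stood at 18.0, 15.1, 13.1, 16.4 and 36.2 CPM, and the reoxygenated level was 1.46 [1.19, 1.76] above 20% O2 day 10. The genes that serve it were all above 20% O2 day 10 as well, but by less than 2-fold. HERC5 stood at 61.2, 54.9, 61.5, 60.5 and 90.3 CPM, a difference of 0.55 [0.40, 0.70]. HERC6, its neighbour, stood at 13.2, 12.5, 14.9, 7.67 and 25.4 CPM, a difference of 0.76 [0.47, 1.06]. USP18, which also restrains the receptor, stood at 3.56, 2.97, 3.26, 4.03 and 5.66 CPM. UBE2L6 stood at 25.2, 15.8, 22.4, 24.9 and 30.4 CPM, being lowest at 1% O2 day 1.

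Among other antiviral effectors, SAMD9 and SAMD9L, paired genes on chromosome 7 whose products restrict poxviruses and translation, both rank among the 16. SAMD9L (chr7:93130056-93148385) stood at 6.17, 6.02, 6.36, 3.16 and 19.0 CPM, or 1.55 [1.17, 1.99] above 20% O2 day 10. SAMD9 stood at 36.1, 42.0, 26.6, 27.2 and 72.1 CPM, or 1.43 [1.24, 1.64] above it. RSAD2, which encodes viperin, a maker of a chain-terminating nucleotide, had few reads. Its counts were 4, 3, 9, 4 and 15, so that the difference of 1.17 had an interval from 0.08 to 2.74. TRIM22 was likewise sparse, at 1.54, 1.39, 0.979, 1.53 and 3.02 CPM, and lay 1.45 [0.57, 2.76] above 20% O2 day 10.

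IFI44 (chr1:78649789-78664078), a cytosolic protein of the response, spanned the widest range between the 2 libraries that bracket reoxygenation. It stood at 17.1, 17.1, 13.7, 6.14 and 41.6 CPM, so that it was lowest at 10 days of 1% O2 and 6.61-fold higher after reoxygenation, a difference of 2.72 [2.37, 3.17]. The adjacent IFI44L held 10, 4, 12, 7 and 14 counts, too few for an order between libraries. EPSTI1 stood at 2.41, 2.22, 2.28, 4.41 and 6.67 CPM, and was 1.47 [0.86, 2.26] above 20% O2 day 10. IFI35 stood at 6.94, 5.38, 8.24, 5.27 and 13.3 CPM, a difference of 0.68 [0.29, 1.10].

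Against the library of 10 days at 1% O2, the exposure that the reoxygenated cells had also had first, 16 of the 55 genes were higher and 2 lower. Over all genes 5.6% were higher and 11.2% lower, so the balance of the list ran opposite to that of the transcriptome. The median difference of the 55 genes was 0.47 and that of all genes 0.03. The 16 were IFI44, SAMD9L, OASL, IFIT1, IFIT3, RSAD2, IFIT2, GBP1, HERC6, DDX60, OAS2, SAMD9, IFI35, IFI44L, IFIH1 and ISG15, and the interval included 0 for IFI44L (1.18 [-0.01, 2.94]). The 2 lower ones were ISG20, at -1.44 [-1.89, -1.04], and IRF7, at -1.26 [-2.06, -0.62]. This comparison shares the reoxygenated library with the previous one, so the pair are not independent.

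**Figure D2:**
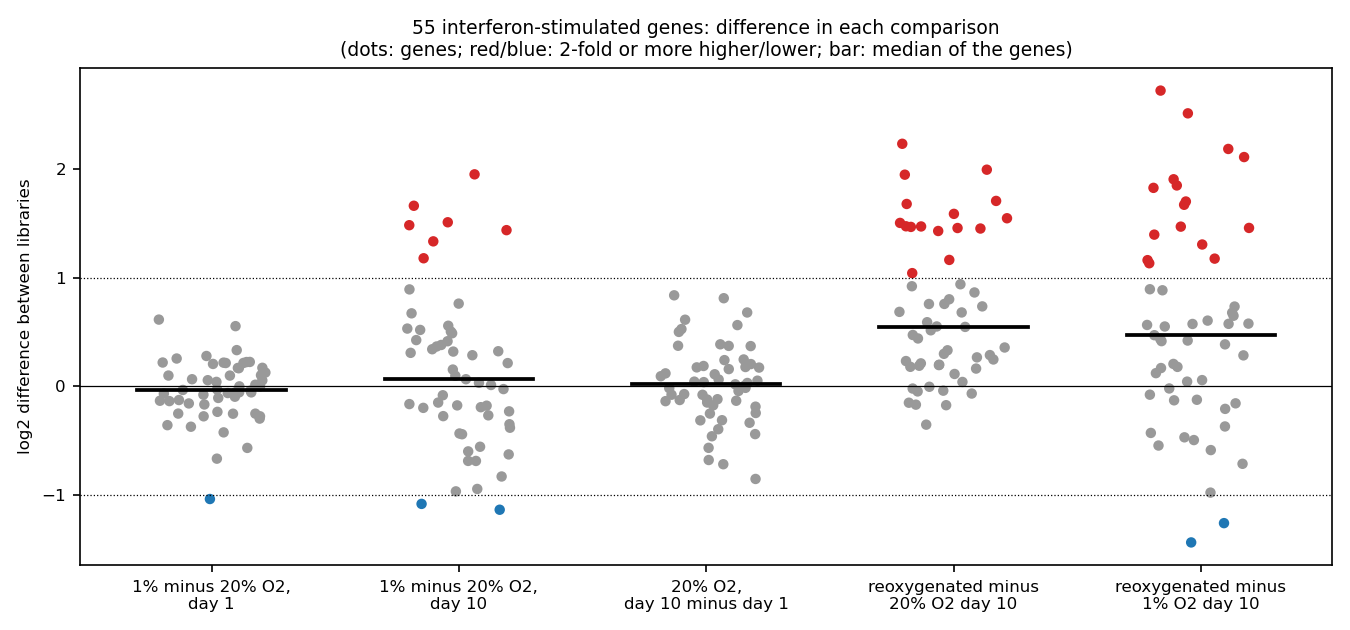
Log2 difference of each of the 55 interferon-stimulated genes in 5 comparisons of libraries, 1 dot per gene, with horizontal bars at the median and dotted lines at the 2-fold rule. The median lies at 0.55 and 0.47 in the 2 comparisons with reoxygenated cells and at -0.03, 0.07 and 0.02 in the others, and neighbouring columns share libraries.

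Chronic hypoxia gave a divided picture, with some genes of the list high and others low. Between 10 days at 1% O2 and 10 days at 20% O2, 7 of the 55 genes were higher and 2 lower. Over all genes 14.4% were higher and 7.04% lower, so neither share of the list (7 and 2 of 55) exceeded the background. The median difference was 0.07 for the list and 0.02 for all genes, and 30 of the 55 lay above 0. The higher genes were ISG20, MX2, BATF2, OAS1, IRF7, IFITM1 and GBP2, and the lower ones IFI44 and GBP1.

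ISG20 (chr15:88635632-88656483), an exonuclease of single-stranded RNA, had the largest difference. It stood at 4.05, 6.30, 5.30, 21.1 and 7.67 CPM, so that the library of 10 days at 1% O2 was 3.87-fold that at 20% O2, or 1.95 [1.59, 2.41]. On day 1 the 1% O2 library was also above its control, by 0.62 [0.06, 1.23], and after reoxygenation ISG20 lay 0.52 [0.00, 1.06] above 20% O2 day 10. IFITM1, IFITM2 and IFITM3, membrane proteins that stop viruses from fusing, lie in 1 cluster on chromosome 11. IFITM1 (chr11:314040-315272) stood at 15.9, 18.5, 23.0, 58.4 and 29.6 CPM, a difference of 1.34 [1.14, 1.55] at day 10. IFITM3 stood at 143, 141, 156, 226 and 175 CPM, a difference of 0.53 [0.45, 0.62]. IFITM2 stood at 40.2, 38.4, 36.6, 45.4 and 43.0 CPM, a difference of 0.31 [0.12, 0.50]. All 3 were thus highest at 10 days of 1% O2, by different amounts. Of the 50-base words of their transcripts, 41.9%, 28.7% and 19.6% also occur in another gene, chiefly in one another, so that the authors' estimation can shift reads among them.

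The guanylate-binding proteins, GTPases that attack the vacuoles of intracellular pathogens, parted in opposite directions. GBP2 (chr1:89106132-89126114) stood at 9.44, 9.08, 16.7, 38.2 and 27.0 CPM, and was 1.18 [0.94, 1.44] higher after 10 days at 1% O2. Its level at 20% O2 also differed between the days, day 10 exceeding day 1 by 0.81 [0.47, 1.19]. GBP1 (chr1:89052319-89065208) stood at 25.9, 24.8, 24.6, 11.5 and 37.1 CPM, and was lower at 10 days of 1% O2 by -1.08 [-1.41, -0.78]. It had its highest level after reoxygenation.

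The transcription factors of the pathway were likewise divided. IRF7 (chr11:612555-615950), which drives interferon genes, stood at 4.72, 3.99, 2.53, 7.19 and 2.89 CPM. Its difference at day 10 was 1.44 [0.89, 2.16], against a control library in which it was lower than at day 1 by -0.85 [-1.60, -0.22]. IRF9, the DNA-binding partner of the STAT proteins, stood at 5.88, 6.86, 8.40, 13.5 and 8.18 CPM. Of the words of IRF9, 67.0% occur also in an overlapping read-through transcript, so its level is uncertain. STAT2 stood at 29.1, 32.7, 37.7, 53.0 and 55.2 CPM, and was 0.49 [0.31, 0.67] higher at 10 days of 1% O2 and 0.55 [0.36, 0.74] higher after reoxygenation than at 20% O2 day 10. IRF1, which responds to interferon gamma, stood at 34.4, 40.2, 35.2, 23.9 and 35.1 CPM. It was lowest at 10 days of 1% O2, by -0.56 [-0.79, -0.33]. SP110, a nuclear body protein, stood at 23.3, 20.8, 14.1, 7.86 and 12.7 CPM, and was lowest in the same library. BATF2 rested on 11, 8, 10, 28 and 15 counts, and its difference of 1.51 had an interval from 0.63 to 2.92.

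OAS1 and MX2, whose levels are given above, differed by 1.49 [0.96, 2.16] and 1.66 [1.03, 2.56] between 10 days at 1% and at 20% O2. IFI44 was lower by -1.14 [-1.60, -0.74]. Short of the 2-fold rule, SAMD9L differed by -0.97 [-1.64, -0.40], HERC6 by -0.94 [-1.36, -0.57] and OAS3 by -0.69 [-0.89, -0.49]. LGALS3BP, a secreted glycoprotein and one of the most abundant of the list, stood at 248, 256, 381, 546 and 364 CPM. It was 0.52 [0.46, 0.58] higher at 10 days of 1% O2, and 0.61 [0.55, 0.68] higher at 20% O2 day 10 than at day 1.

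**Figure D3:**
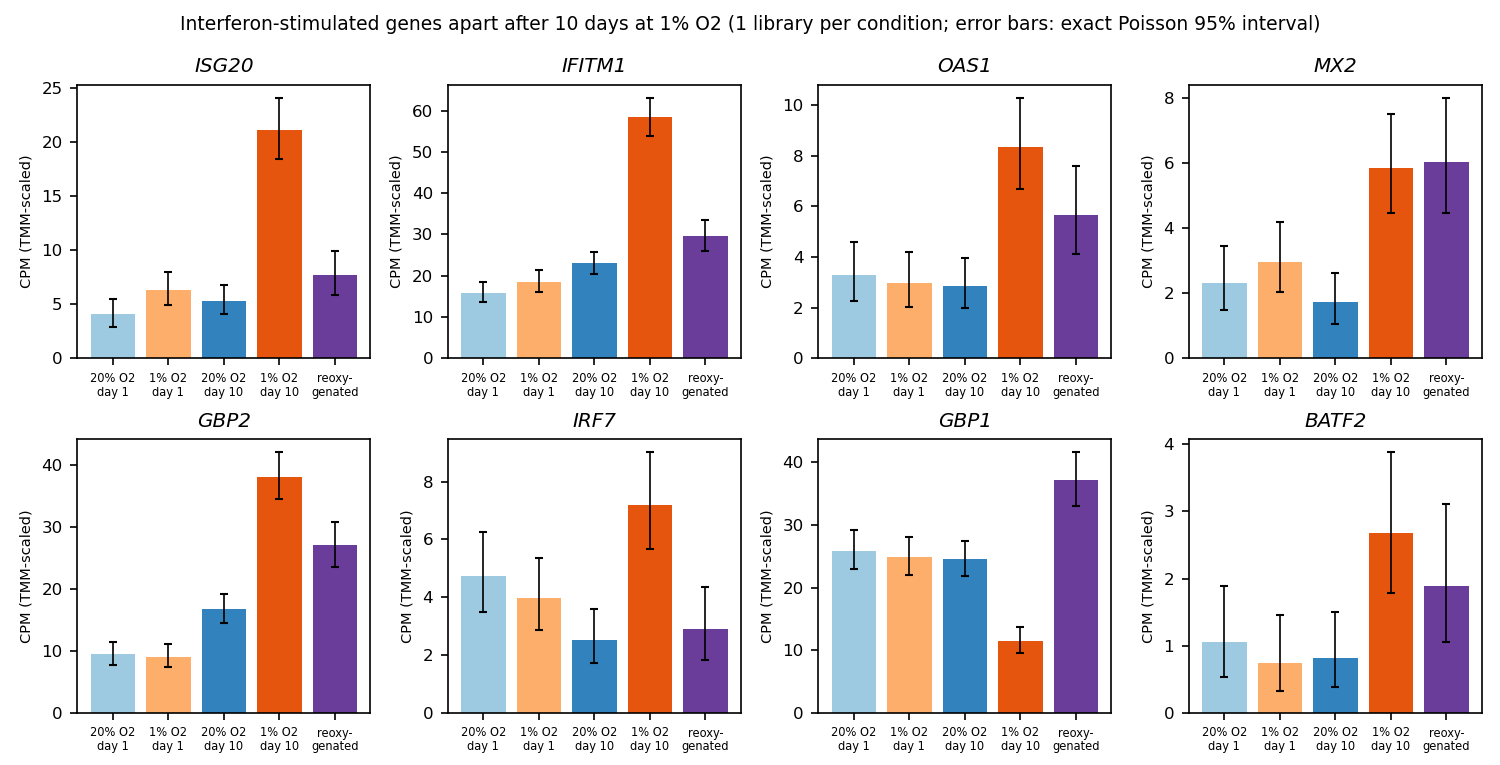
Levels of 8 of the 9 interferon-stimulated genes at least 2-fold apart between 10 days at 1% and at 20% O2, in TMM-scaled CPM on a linear axis from 0, with 1 library per bar and exact Poisson 95% intervals. ISG20, IFITM1, OAS1, GBP2, IRF7 and BATF2 are highest at 10 days of 1% O2, MX2 is about equal there and after reoxygenation, and GBP1 is lowest there.

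The summed levels of markers of other cells were also highest in the library of 10 days at 1% O2, each sum resting on few genes. The 6 leukocyte markers summed to 2.50, 1.30, 2.45, 6.52 and 2.89 CPM, of which CD3E and NKG7 were among those at 0 in every library. At 10 days of 1% O2, PTPRC had 28 counts, or 2.68 CPM, and CD14 had 40 counts, or 3.84 CPM. The 5 fibroblast markers summed to 4.91, 7.04, 8.57, 15.2 and 9.18 CPM, nearly all of it COL1A1, with COL1A2 at 0 throughout. LUM, PDGFRA and DCN had their highest levels in other libraries, at 0.816, 0.278 and 0.126 CPM. Of the 3 plasmacytoid dendritic cell markers CLEC4C and LILRA4 were at 0 in every library. The 3 endothelial markers summed to 1.64, 1.11, 1.31, 2.59 and 2.26 CPM, and PECAM1 was highest after reoxygenation with 15 counts. The line's own 6 markers were all below 20% O2 day 10 in the library of 10 days at 1% O2, CD44 by -1.08. The luminal or epithelial genes that passed the filter were divided between the same 2 libraries. EPCAM was 0.94 above 20% O2 day 10, while GATA3, ERBB2 and CDH1 differed from it by -0.62, -0.19 and -0.25. The interval of CDH1 included 0. The part of these in the differences was not tested.

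After acute hypoxia the list was level with its control. Between 1 day at 1% O2 and 1 day at 20% O2, 0 of the 55 genes were higher and 1 was lower, against 2.12% and 0.839% of all genes. The median difference was -0.03 for the list and 0.00 for all genes. The lower gene was IFI44L, which had 4 counts against 10, a difference of -1.04 whose interval from -3.50 to 0.42 includes 0. Under 2-fold, 14 genes had intervals clear of 0, 10 above it and 4 below. Such intervals cover counting error only and narrow as a gene's counts grow. The share of all genes with one clear of 0 is not at hand, so the 14 are no result about the list. The largest above were ISG20 at 0.62 [0.06, 1.23] and PARP14 at 0.28 [0.07, 0.50]. The 4 below were UBE2L6 at -0.66 [-0.96, -0.39], PLSCR1 at -0.57 [-0.85, -0.29], IFIT1 at -0.37 [-0.56, -0.19] and IFIT5 at -0.25 [-0.40, -0.10]. PLSCR1, a scramblase that blocks viral entry, stood at 25.3, 17.1, 22.8, 19.5 and 17.9 CPM, and lay below 20% O2 day 10 after reoxygenation, by -0.35 [-0.66, -0.06].

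The difference between the chronic and the acute difference draws on 4 libraries. It was at least log2 1 above 0 for 7 genes of the list and as far below for 2, against 12.5% and 6.18% of all genes. The 7 were BATF2, IRF7, OAS1, ISG20, MX2, GBP2 and IFITM1, from 1.93 down to 1.12, and the 2 were GBP1 at -1.02 and IFI44 at -1.14. Its median was 0.15 for the list and -0.02 for all genes. It shares all of its libraries with the acute and the chronic comparison.

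Between day 1 and day 10 at 20% O2, 0 of the 55 genes differed by 2-fold in either direction, against 3.06% of all genes higher and 1.31% lower at day 10. The median difference was 0.02. GBP2, IFITM1 and LGALS3BP were above day 1, IFITM1 by 0.53 [0.25, 0.82], and IFIT1 was below it by -0.68 [-0.87, -0.49], ISG15 by -0.46 [-0.78, -0.15] and SP110 by -0.72 [-1.01, -0.44]. Of the 11 genes at least 2-fold above each other library after reoxygenation, 7 lay below their day 1 level in the control of day 10, of which IFIT1, IFIT3, ISG15 and IFI44 had intervals below 0 and DDX60, OASL and IFIT2 had intervals that include it. The other 4 were RSAD2, IFIH1, OAS2 and SAMD9L, whose differences there were 0.68, 0.37, 0.11 and 0.04, all with intervals that include 0.

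**Figure D4:**
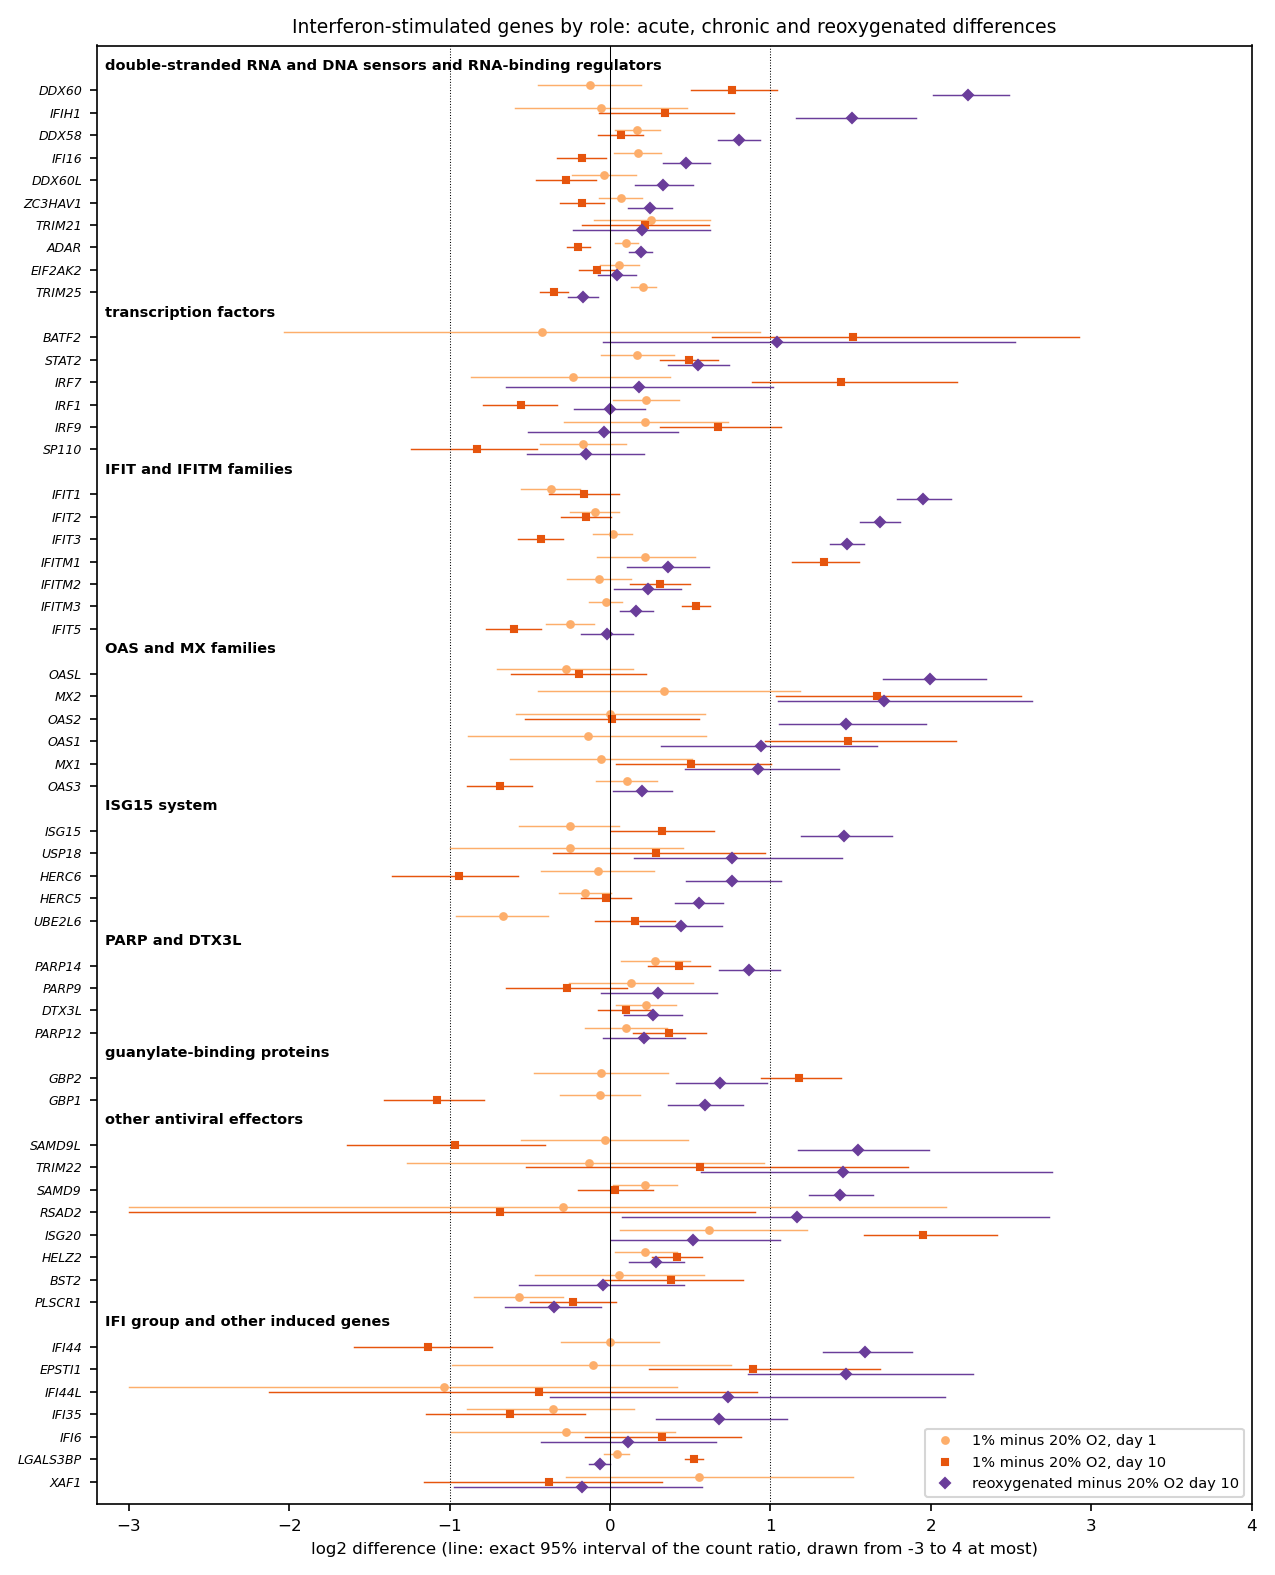
Log2 difference of the 55 interferon-stimulated genes, grouped by role and ordered within a group by the reoxygenated difference, with exact 95% intervals of the count ratio (counting error only). Diamonds (reoxygenated minus 20% O2 day 10) reach past 2-fold for DDX60, IFIH1, IFIT1, IFIT2, IFIT3, OASL and others, while circles (day 1) lie within 2-fold apart from IFI44L, and squares (day 10) fall on both sides.

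The remaining genes had smaller differences. PARP9, PARP12, PARP14 and DTX3L, enzymes of ADP-ribosylation and a ubiquitin ligase bound to PARP9, were all above 20% O2 day 10 after reoxygenation, by 0.21 to 0.87. PARP14 was the largest of them at 31.4, 38.2, 33.5, 45.2 and 61.3 CPM. For PARP9 and PARP12 the exact Poisson 95% intervals of the levels in those libraries overlapped. They ran from 12.2 to 17.6 CPM after reoxygenation and from 10.1 to 14.0 CPM at 20% O2 day 10 for PARP9. For PARP12 they ran from 24.7 to 32.3 and from 21.7 to 27.3 CPM. HELZ2, a helicase, stood at 39.1, 45.6, 51.2, 68.5 and 62.7 CPM. BST2, the tether that holds virions on the cell, stood at 5.88, 6.12, 7.02, 9.20 and 6.79 CPM. IFI6 stood at 3.85, 3.15, 5.79, 7.29 and 6.29 CPM, and XAF1, a pro-apoptotic gene, ranged from 1.83 to 3.43 CPM. For BST2, IFI6 and XAF1 the reoxygenated level and that of 20% O2 day 10 did not part beyond counting error.

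Levels can be compared between genes only per length. Per kilobase of the longest coding transcript at 20% O2 day 1, IFITM3 stood at 177 CPM per kb and LGALS3BP at 103, followed by IFITM2 at 45.0, ADAR at 43.1 and IFIT3 at 41.6. RSAD2, at 0.110 CPM per kb, was the lowest. After reoxygenation IFIT3 stood at 97.4, IFIT2 at 54.2 and ISG15 at 46.0 CPM per kb, close to or above ADAR at 50.6.

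A statistical test was possible for oxygen alone, across the 4 libraries of day 1 and day 10 with day as a second term (edgeR quasi-likelihood, Benjamini-Hochberg over 13011 genes). It found that 0 of 53 interferon-stimulated genes tested rose and 0 fell. Over all genes tested 0.899% rose and 0.0999% fell. DESeq2 and limma-voom with the same terms also called 0 of the 53. Of all 13011 genes, DESeq2 called 47 that rose and 2 that fell, and limma-voom 202 and 22. At an unadjusted p under 0.05, edgeR had 3 of the 53, DESeq2 2 and limma-voom 4. The share of all genes under that p is not at hand, so these counts are no result about the list. The edgeR genes were ISG20, at a log2 fold change of 1.37 ± 0.43 (SE) with an adjusted p of 0.144, IFITM1 at 0.82 ± 0.32 with an adjusted p of 0.268, and MX2 at 1.09 ± 0.54 with an adjusted p of 0.407. All 3 were above their control at day 10, and at day 1 the interval cleared 0 for ISG20 alone, IFITM1 differing by 0.22 [-0.08, 0.53] and MX2 by 0.33 [-0.45, 1.19]. The SE was worked out from the log2 fold change and the F statistic of the test. The test left 1 residual degree of freedom, and its p-values also draw on 29.8 prior degrees of freedom estimated over all genes. It treats both days as sharing 1 oxygen effect, while most of these differences were seen at day 10, and it does not include the reoxygenated library. Without the 1% O2 day 1 library and with no day term, 11 of the 53 rose and 4 fell, as did 2062 and 2251 of all genes, the 1% O2 arm then resting on 1 library.

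The genes that send and carry the interferon signal were read from a list of their own. Of the ligands, IFNA1, IFNB1, IFNE, IFNK, IFNW1, IFNG, IFNL2 and IFNL3 had 0 counts in every library, which allows up to 0.377 CPM in the reoxygenated library, and IFNL1 had 2 counts at 20% O2 day 10 alone. None of the 6 receptor genes on the list passed 2-fold in any of the 6 comparisons. IFNAR1, a chain of the type I receptor, stood at 72.6, 97.4, 96.7, 77.3 and 89.4 CPM. IFNAR2, its partner, stood at 14.4, 18.4, 20.7, 13.1 and 18.5 CPM. The type II receptor genes IFNGR1 and IFNGR2 ranged from 32.2 to 60.6 CPM and from 40.8 to 48.3 CPM.

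The kinase genes were also within 2-fold between reoxygenated cells and 20% O2 day 10. JAK1, JAK2 and TYK2 differed there by -0.11 [-0.20, -0.01], 0.59 [0.10, 1.11] and 0.03 [-0.16, 0.22]. The factor IRF3 and the feedback inhibitor SOCS3 differed by -0.17 [-0.39, 0.04] and -0.44 [-0.65, -0.24], and SOCS1 had 3 to 9 counts a library.

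Of all 32 sensing and signalling genes that passed the filter, 2 were higher and 0 lower after reoxygenation against 20% O2 day 10, beside 3.4% and 1.41% of all genes. These were DHX58, a regulator of RIG-I, with 15 against 7 counts, and IRF5, with 27 against 18. At 10 days of 1% O2, 2 of the 32 were higher and 1 lower, beside 14.4% and 7.04% of all genes. IRF5 differed by 1.64 [0.97, 2.62] and PTPN6, a phosphatase with 12 against 3 counts, by 1.62 [0.34, 4.70]. PTPN6 passed the filter through that 1% O2 library alone, so that its being high there is partly a product of the filter. RNASEH2B, a subunit of the enzyme that removes RNA from DNA, stood at 35.2, 33.5, 34.0, 16.1 and 32.5 CPM, and was lower by -1.07 [-1.35, -0.82].

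Of 49 further interferon targets that passed the filter, 3 were higher and 0 lower after reoxygenation against 20% O2 day 10, where 3.4% and 1.41% of all genes were. These were CXCL11, CXCL10 and GBP4, of which GBP4 was the only one above 5 CPM, at 2.79, 3.15, 3.75, 3.07 and 10.3 CPM. CXCL11 and CXCL10 passed the filter through the reoxygenated library alone, so that their being high there is partly a product of the filter. The median of the 49 genes was 0.18, against 0.55 for the 55 genes. At 10 days of 1% O2, 5 of the 49 were higher and 6 lower, where 14.4% and 7.04% of all genes were. TNFSF10, the gene of the death ligand TRAIL, stood at 1.73, 3.43, 3.35, 124 and 3.15 CPM, a difference of 5.14 [4.77, 5.70]. SECTM1, C1R, RNF213 and C1S were the other higher ones, by 1.62, 1.33, 1.23 and 1.02. TRIM14 stood at 98.6, 78.8, 94.3, 27.6 and 69.1 CPM and was lower by -1.77 [-1.96, -1.58], followed by NMI at -1.49, SLC25A28 at -1.46, PNPT1 at -1.35, LAP3 at -1.31 and CXCL10 at -1.06, the last with 1 against 5 counts.

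The promoter motif was set beside these levels. Of the 11 genes at least 2-fold above each other library after reoxygenation, 8 had a window and 7 of them (87.5%) held the interferon-stimulated response element. Of the other 44 genes, 38 had a window and 22 (57.9%) held it. SAMD9L was the one of the 8 without a match, and IFIT5, whose reoxygenated level did not differ from that at 20% O2 day 10, had 3. Of the genes higher at 10 days of 1% O2, 4 had a window and 2 of them, ISG20 and IFITM1, held it, while OAS1 and BATF2 did not. Both lower ones, GBP1 and IFI44, held it. A match is a description of these letters, and a window without one says nothing of the factor.

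A pair of other motifs was searched in the same windows. The gamma-activated sequence TTCNNNGAA, known from the response to interferon gamma and its own reverse complement, was found in 28.3% of the 46 genes with a window, and in 8.63% of all genes with one. The core of the hypoxia response element, searched as ACGTG or GCGTG on both strands, was found in 45.7% of the 46 genes and in 69.5% of all genes with a window. In 7.66% and 48.4% of all windows of this length these motifs were present.

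**Figure D5:**
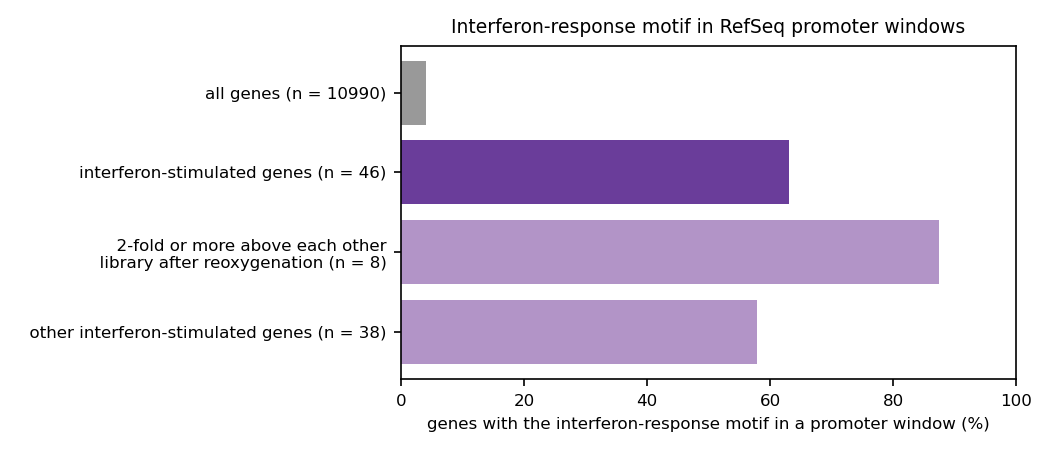
Share of genes with a RefSeq promoter window that hold the interferon-stimulated response element, in percent on an axis from 0 to 100, for all genes passing the filter, the 55 interferon-stimulated genes, the 11 at least 2-fold above each other library after reoxygenation, and the other 44. The shares are 4.09%, 63.0%, 87.5% and 57.9%, the third resting on 8 genes with a window.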

How the data were processed

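The authors deposited expected counts per gene symbol, estimated and not normalized, and a table of TMM-scaled values (a signal on a CPM scale) derived from them. The submitters' processing notes name Bowtie2 2.1.0, RSEM 1.2.15, edgeR and hg38. The annotation and strand setting are not given in the sources at hand, so overlapping and antisense genes cannot be separated. Of the 55 genes, 13 overlap an exon of another gene and 8 share over 5% of their 50-base words. Symbols of 28 rows had become dates.

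Expected counts were rounded, and TMM factors and log2 CPM came from edgeR 4.0.16 in R 4.3.3. DESeq2 1.42.0 and limma 3.58.1 were alternatives, and scripts were tested on simulated data. The labels do not say that cultures were separate, so p-values reflect only how far these libraries vary, which may be technical. Genes printed library by library were the 6 highest and 6 lowest per difference among those reaching 5 CPM with an interval clear of 0, a fixed panel, and others needed to describe a family. The genes, lists and rules were chosen with earlier results of these data known. Coordinates and promoter sequences are RefSeq's, and shared words and transcript lengths come from GENCODE transcripts. Alternatives were library totals, DESeq2 size factors, the authors' table as log2(value + 1), other filters, other tools and leaving out each library. Some genes of the lists are not reported here.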

Additional observations from a re-analysis of the deposited data

How the results depend on the processing

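Of the recomputed counts and medians of the list, 101 stayed within the limits set and 11 moved. Scaled by library totals, the median of all genes moved from 0.02 to 0.14 in the chronic comparison and from -0.02 to 0.10 for chronic minus acute. The genes of the list were then 8 higher and 1 lower in the first, and 9 higher and 1 lower in the second. Over all genes this scaling gave 2331 higher and 667 lower in the chronic comparison, in place of 2011 and 982. For chronic minus acute it gave 2086 higher and 583 lower over all genes, in place of 1747 and 862. DESeq2 size factors and the authors' table also gave 1 lower gene for chronic minus acute, in place of 2. Over all genes they gave 772 and 701 lower ones there. The acute count of 1 lower gene became 0 with the authors' table or a limit of 5 CPM, and 2 with all rows kept. Over all genes the authors' table gave 19 lower ones in the acute comparison, in place of 117. With all rows kept, 1 gene was higher at 20% O2 day 10 than at day 1. Without a filter on low counts, 1 of 57 genes of the list rose with 1% O2 in edgeR's test and 0 fell. Of all 17935 genes then tested, 237 rose and 44 fell. Leaving out each library in turn, with no day term, gave 0 to 11 genes that rose and 0 to 4 that fell, the highest of both without the 1% O2 day 1 library.

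The number of genes of the list at least 2-fold above each other library after reoxygenation was recomputed under alternatives chosen after seeing the data. It was 11 with library totals, 10 with DESeq2 size factors and 9 with the authors' table, where ISG15 and RSAD2 dropped out. Over all 13940 genes the share that met the rule was 0.402%, 0.337% and 0.143% in turn. Among single genes, 692 values stayed and 10 moved, all with library totals. The oxygen test compares libraries within a day through its day term. Without that term it called 0 of all 13011 genes, so its 0 for the list says nothing of the list. The labels give no replicate numbers to pair libraries by. Low counts limit RSAD2, IFI44L, BATF2 and TRIM22.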

Other observations

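Beyond the lists described, 3 genes known as interferon or antiviral genes were seen, after their values were known, among the 49 at least 2-fold above each other library after reoxygenation. CCL5, a chemokine that draws lymphocytes, lay 2.46 above its next highest library on the log2 scale, with 57 counts in reoxygenated cells. The cytidine deaminases APOBEC3G and APOBEC3F lay 1.52 and 1.40 above theirs, with 104 and 145 counts.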
